A study of Mus musculus with 12 samples.

Results

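The AP-1 and immediate early response was followed through 10 transcripts in 12 RNA libraries of cultured mouse fibroblast-like synoviocytes, the matrix-producing cells of the joint lining. The members were chosen by symbol, as the entries of the read-count table named Fos, Fosb, Fosl1, Fosl2, Jun, Junb, Jund, Egr1, Ier3 and Myc, and all 10 were found among 36875 symbols. The study asked how synoviocytes behave when arthritis driven by TNF settles, with their effect on endothelial cells in view. Each of its 3 groups held 4 libraries. The homeostasis group, whose libraries are also described as WT, came from mice given 5% sucrose in drinking water over 3 weeks. The inflammation group (DOX ON) had doxycycline at 1 mg/ml added to that water over 3 weeks, and the resolution group (DOX OFF) had that course and then its withdrawal. The protocol, which is the same for every library, names mice with TNF-induced arthritis as the source of the fibroblasts. The strain, the transgene and its promoter, the age, the time since withdrawal, the culture passage and whether the controls carry the transgene were not given in any source used here. No source says whether the 4 libraries stand for 4 animals or cultures, and p-values then reflect only their spread, which may be technical.

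AP-1 is a dimer of basic leucine zipper proteins. FOS, FOSB, FOSL1 (FRA-1) and FOSL2 (FRA-2) bind DNA as partners of JUN, JUNB or JUND, while the JUN proteins can also pair with one another. Growth factors, cytokines and stress induce Fos, Jun, Junb, Egr1, Ier3 and Myc within minutes to hours and without new protein synthesis, chiefly through the ERK, JNK and p38 kinases, and the transcripts are short-lived. In rheumatoid synovium AP-1 is known for driving matrix metalloproteinases and cytokines, and MYC for driving growth, ribosome production and division.

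Upstream sequences show how differently these genes are laid out before their starts. The 250 bases before the RefSeq start (GRCm38.p6) are printed for Jun, which moved in every comparison, and for Fos and Junb, a Fos-family and a Jun-family member that passed no comparison in the edgeR fit of all 12 libraries by group. Capitals mark matches to the motifs searched. The windows are chr4:95052223-95052472 on the minus strand for Jun, chr12:85473640-85473889 on the plus strand for Fos and chr8:84978749-84978998 on the minus strand for Junb.
Jun: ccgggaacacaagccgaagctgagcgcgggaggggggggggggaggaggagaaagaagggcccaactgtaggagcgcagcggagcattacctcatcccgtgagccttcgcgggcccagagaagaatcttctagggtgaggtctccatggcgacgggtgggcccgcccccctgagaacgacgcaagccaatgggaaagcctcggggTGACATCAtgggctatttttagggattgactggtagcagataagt
Fos: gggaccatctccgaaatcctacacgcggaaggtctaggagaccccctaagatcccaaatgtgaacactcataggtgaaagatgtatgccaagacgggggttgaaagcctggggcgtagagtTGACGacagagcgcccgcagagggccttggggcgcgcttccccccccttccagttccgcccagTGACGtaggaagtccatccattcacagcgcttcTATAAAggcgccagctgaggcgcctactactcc
Junb: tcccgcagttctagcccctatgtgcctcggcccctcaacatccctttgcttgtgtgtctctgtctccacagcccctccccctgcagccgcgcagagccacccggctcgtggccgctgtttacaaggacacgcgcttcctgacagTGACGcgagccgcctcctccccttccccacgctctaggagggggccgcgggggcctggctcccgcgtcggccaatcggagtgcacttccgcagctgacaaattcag

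In the Jun window the capitals are TGACATCA, an 8-base relative of the AP-1 site, from 45 to 38 bases before the start. The Fos window holds TGACG, the core of a cyclic AMP response element, at 2 places, 129 to 125 and 66 to 62 bases before the start, and TATAAA from 33 to 28 bases before it. Junb has TGACG once, from 106 to 102 bases before its start. RefSeq entries were found for 7 members (Fos, Fosb, Fosl2, Jun, Junb, Jund and Ier3). Over both strands, TGACG was in 3 of these 7 windows and in 17.8% of 32851 mouse windows of the same length, and TATAAA was in 1 of 7 and in 12.4% of all. TGACATCA was in 1 of 7 and in 2.93% of all; this motif was added after the sequences had been read. GCGGGGGCG, an EGR site, was in the Fosb and Fosl2 windows, 2 of 7, and in 2.57% of all. The AP-1 site TGANTCA (6.75% of all), TGACGTCA (1.55%, which contains TGACG), the CArG box (1.47%), the EGR site GCGTGGGCG (0.536%), the E-box CACGTG (6.02%) and 3 forms of the NF-kB site (0.0852%, 0.14% and 0.0944%) matched in none of the 7 windows. Sequence beyond the 250 bases was not searched, nor was that of Egr1, Fosl1 or Myc, so sites there would be missed. The Jund window lies 1210 bases before the start in the GENCODE annotation, and the Fosl2 window, 671 bases from it, lies wholly inside the GENCODE gene.

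Totals ran from 18120745 to 34971537 counts per library, so 3 counts, the limit that a count of 0 allows, correspond to 0.0858 to 0.166 CPM (counts scaled to the library total), for counting error only. Levels below are CPM scaled by the trimmed mean of M-values, and every adjusted p is from edgeR's quasi-likelihood test with Benjamini-Hochberg adjustment over 15049 genes, which included all 10 members. The 12 fibroblast markers summed to 29107 to 31597 CPM in homeostasis, 21561 to 24866 in inflammation and 10722 to 16336 in resolution. Against homeostasis 2 of them rose and 6 fell in inflammation and 2 rose and 9 fell in resolution, and the part of this in the members' falls was not tested. Col1a1 stood at 9560 ± 984, 8150 ± 485 and 3118 ± 1181 CPM (SD, n = 4), and Cd3e, Cd3g and Cd8a of T cells were at 0 counts throughout. Summed macrophage markers were 136 to 169 CPM in homeostasis, 674 to 734 in inflammation and 62.9 to 70.2 in resolution, with Ptprc at 44, 310 and 25 counts per group. Summed chondrocyte markers were 1029 to 1321, 200.01 to 279 and 106 to 149 CPM. In these bulk RNA samples, fewer cells of a type and less RNA per cell cannot be told apart. Y-linked Ddx3y had 2150 counts over the homeostasis libraries, 3 over inflammation and 0 over resolution, while Xist, which coats the inactive X chromosome, averaged 10.8, 110.3 and 174 CPM. Treatment and this difference in sex chromosome transcripts cannot be told apart in either comparison against homeostasis. The mouse Tnf entry was 1.78, 2.46, 5.24 and 6.39 CPM in homeostasis 1 to 4, 0.96, 0.573, 1.76 and 0.795 in inflammation, and 0.258, 0.467, 0.136 and 0.37 in resolution, so the transcript was lower in every doxycycline library than in every control. As the transgene is not given, whether its transcript would be counted in this entry is not known. Homeostasis libraries 3 and 4 stood apart from 1 and 2 in several members, Ier3 above all, and results that rest on this pair are given with either or both pairs alone. Among the resolution libraries, the second held the highest level of 8 of the 10 members.

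The Fos family was led by Fosl1, and in the edgeR fit of all 12 libraries by group none of its 4 members passed in any comparison, although alternative settings called Fos, Fosb or Fosl1 in resolution against homeostasis. Fosl1 (chromosome 19, 5447547 to 5455946, plus strand, 4 exons) encodes FRA-1, a FOS protein linked to invasive fibroblasts. It stood at 72.8, 100.1, 105 and 123 CPM in the homeostasis libraries, 83.9, 88.6, 89.8 and 85.3 in inflammation and 62.1, 96.6, 79.5 and 72.8 in resolution. The groups overlapped, with homeostasis 4 highest and resolution 1 lowest. From homeostasis the log2 difference was -0.21 ± 0.16 (SE) in inflammation (adjusted p = 0.3143) and -0.37 ± 0.16 in resolution (adjusted p = 0.05408), and from inflammation to resolution it was -0.16 ± 0.16 (adjusted p = 0.4892). Without resolution 2 the resolution-to-homeostasis difference was -0.49 (adjusted p = 0.0114), and without homeostasis 1 it was -0.48 (adjusted p = 0.0105), and against homeostasis 3 and 4 alone it was -0.54 (adjusted p = 0.00596). Over all alternatives this difference ran from -0.54 to -0.11, with adjusted p up to 0.445.

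Fosl2 (chromosome 5, 32135801 to 32157842, plus strand, 4 exons), which encodes FRA-2, was the flattest of the 10. Its levels were 84.0, 88.6, 86.4 and 72.8 CPM in homeostasis, 58.0, 75.8, 90.3 and 92.6 in inflammation and 68.9, 79.0, 89.8 and 79.5 in resolution. The lowest and the highest of the 12 libraries were both inflammation libraries. Its log2 differences were -0.07 ± 0.15 in inflammation and -0.07 ± 0.15 in resolution, both against homeostasis (adjusted p = 0.7511 and 0.7294), with 95% intervals from -0.35 to 0.22 in each.

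Fos (chromosome 12, 85473890 to 85477273, plus strand, 4 exons), the prototype immediate early gene, was low in every library. It was 7.41, 8.59, 10.48 and 9.15 CPM in homeostasis, 12.0, 10.7, 8.32 and 9.19 in inflammation and 8.86, 12.0, 9.67 and 9.43 in resolution. The groups overlapped. The log2 difference was 0.18 ± 0.17 in inflammation (95% interval -0.16 to 0.51, adjusted p = 0.4402), 0.17 ± 0.17 in resolution (interval -0.17 to 0.50, adjusted p = 0.4251) and -0.01 ± 0.17 between them (adjusted p = 0.975). With GC and length taken into account, Fos was higher in resolution than in homeostasis (log2 0.39, adjusted p = 0.0267).

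Fosb (chromosome 7, 19302696 to 19310051, minus strand, 4 exons) was the rarest member, at 29 to 63 counts per library. Homeostasis 3 and 4 held 3.13 and 2.85 CPM and homeostasis 1 and 2 held 1.52 and 1.23, a wider span than that of the 8 doxycycline libraries (1.35 to 2.03). It passed no comparison, with log2 differences of -0.29 ± 0.30 in inflammation (adjusted p = 0.471) and -0.50 ± 0.30 in resolution (adjusted p = 0.1753). Against homeostasis 1 and 2 alone the same differences were 0.37 and 0.15, and against 3 and 4 alone they were -0.74 (adjusted p = 0.0501) and -0.96 (adjusted p = 0.0083). Without homeostasis 2 Fosb was lower in resolution (log2 -0.70, adjusted p = 0.0472).

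**Figure D1:**
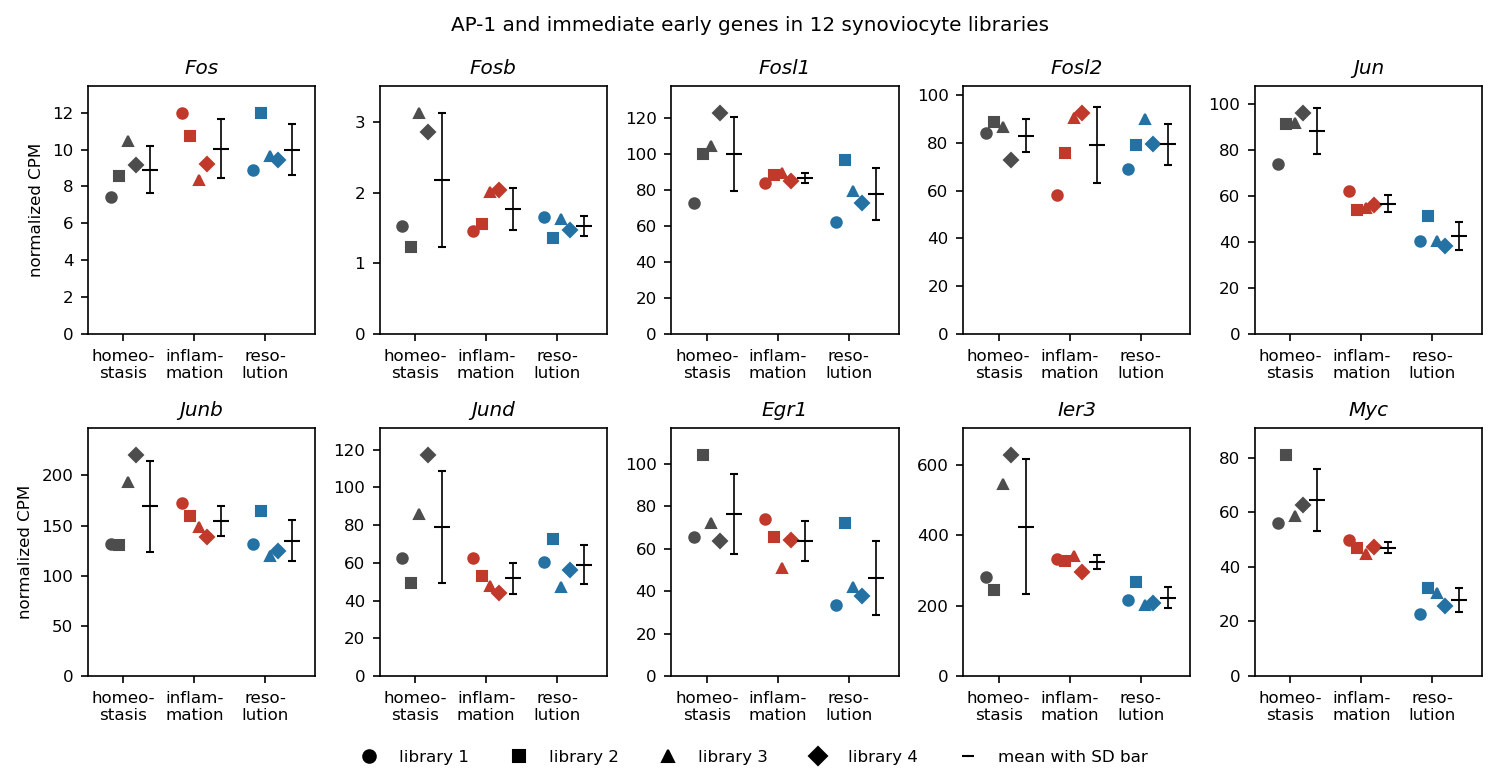
Level of each of the 10 genes in the 12 libraries, in TMM-normalized CPM on axes that start at 0, with 1 point per library (its shape gives the library number) and the group mean with an SD bar beside it (n = 4). Jun and Myc step down from homeostasis through inflammation to resolution with no overlap between groups, Fosl2 and Fos do not, and homeostasis splits into a low and a high pair for Ier3.

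Within the Jun family, Jun fell and Junb held the largest part. Jun (chromosome 4, 95049034 to 95052222, minus strand, 1 exon), the AP-1 protein that JNK phosphorylates, was 74.1, 91.4, 91.7 and 96.5 CPM in homeostasis, 62.2, 54.2, 54.7 and 56.3 in inflammation and 40.7, 51.6, 40.4 and 38.3 in resolution. Every inflammation library was below every homeostasis library, and every resolution library was below every inflammation library. Jun was 1.56-fold lower in inflammation than in homeostasis (log2 -0.64 ± 0.13, adjusted p = 0.0008951), 2.07-fold lower in resolution than in homeostasis (log2 -1.05 ± 0.13, adjusted p = 2.553e-06) and 1.33-fold lower in resolution than in inflammation (log2 -0.41 ± 0.13, adjusted p = 0.04044). The last of these did not pass once GC content and transcript length were taken into account (log2 -0.17, adjusted p = 0.215). It was also lost without homeostasis 3, any 1 inflammation library or resolution 1, 3 or 4 (adjusted p = 0.0516 to 0.129), and on blocking by replicate in the fit of 3 groups (log2 -0.42, adjusted p = 0.0691).

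Junb (chromosome 8, 84974484 to 84978718, minus strand, 1 exon) encodes a JUN protein that can restrain JUN-driven division. It was 132, 130.1, 194 and 221 CPM in homeostasis, 173, 159.8, 148 and 138 in inflammation and 131, 165, 119.8 and 125 in resolution. The homeostasis libraries alone held both the highest values and some of the lowest. No difference passed, at log2 -0.13 ± 0.16 in inflammation (adjusted p = 0.5743) and -0.33 ± 0.16 in resolution (adjusted p = 0.1025). With homeostasis 1 and 2 as the only controls these became 0.24 and 0.032, and with 3 and 4 as the only controls -0.40 and -0.61 (adjusted p = 0.0443 and 0.00185). Junb was also lower in resolution without homeostasis 1, homeostasis 2 or resolution 2 (adjusted p = 0.0325 to 0.0432).

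Jund (chromosome 8, 70698949 to 70700616, plus strand, 1 exon) encodes the JUN protein least dependent on stimulation. Its levels were 62.7, 49.6, 85.9 and 117 CPM in homeostasis, 62.4, 53.1, 47.6 and 43.9 in inflammation and 60.5, 72.4, 47.4 and 56.0 in resolution. The groups overlapped, and homeostasis 3 and 4 lay above every other library. Jund was lower in inflammation by the test, 1.52-fold (log2 -0.61 ± 0.21, adjusted p = 0.02736), but against homeostasis 1 and 2 alone the difference was -0.11 (adjusted p = 0.663), and without homeostasis 4 it was -0.33 (adjusted p = 0.159). The call was also lost without homeostasis 3 or inflammation 2, 3 or 4 and with limma-voom, among others (adjusted p = 0.0515 to 0.089). In resolution it was -0.42 ± 0.21 (adjusted p = 0.09758) with all controls, -0.77 (adjusted p = 0.0013) against homeostasis 3 and 4 alone and 0.064 against 1 and 2 alone, and it passed without homeostasis 2 or resolution 2 (adjusted p = 0.0149 and 0.0476).

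Outside the AP-1 families, Egr1 (chromosome 18, 34859823 to 34864984, plus strand, 2 exons) is a zinc finger factor induced downstream of ERK. It was 65.5, 104, 72.2 and 63.6 CPM in homeostasis, 74.2, 65.3, 50.9 and 63.9 in inflammation and 33.2, 71.8, 41.7 and 37.7 in resolution. Resolution 1, 3 and 4 lay below every other library, and resolution 2 lay inside the range of the other groups. Egr1 was 1.66-fold lower in resolution than in homeostasis (log2 -0.73 ± 0.21, adjusted p = 0.006772). It did not pass in inflammation (log2 -0.27 ± 0.21, adjusted p = 0.3349) or between inflammation and resolution (log2 -0.46 ± 0.21, adjusted p = 0.137), but it passed in the latter with only those groups blocked by replicate (log2 -0.52, adjusted p = 0.0323). Without resolution 2 the difference between inflammation and resolution was -0.76 (adjusted p = 0.00435). The resolution-to-homeostasis call was lost with a correction for GC content and length (log2 -0.49, adjusted p = 0.0641) and against homeostasis 3 and 4 alone (log2 -0.55, adjusted p = 0.0679).

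Ier3 (chromosome 17, 35821684 to 35822923, plus strand, 2 exons), an NF-kB and ERK responsive gene that affects cell survival, was the most abundant member. Its levels were 280.1, 244, 545 and 629 CPM in homeostasis, 333, 327, 339.7 and 296 in inflammation and 215, 267, 200.5 and 208 in resolution. Inflammation therefore lay between the 2 pairs of homeostasis libraries, and every resolution library was below every inflammation library. Ier3 was 1.91-fold lower in resolution than in homeostasis (log2 -0.93 ± 0.22, adjusted p = 0.001643). That value was -0.25 (adjusted p = 0.185) against homeostasis 1 and 2 alone and -1.39 (adjusted p = 1.64e-07) against 3 and 4 alone. In inflammation the difference from homeostasis was -0.39 ± 0.22 (adjusted p = 0.176) with all 4 controls, 0.31 (adjusted p = 0.117) against 1 and 2 and -0.83 (adjusted p = 0.000148) against 3 and 4. Without homeostasis 2 it was -0.56 (adjusted p = 0.0307). From inflammation to resolution it was -0.54 ± 0.22 (adjusted p = 0.1), and -0.56 (adjusted p = 0.000228) in a fit of only those 2 groups that blocked by replicate. It also passed without homeostasis 2 or 4 (adjusted p = 0.0373 and 0.0429) and in a fit of those 2 groups with no block (adjusted p = 0.00384).

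Myc (chromosome 15, 61985391 to 61990374, plus strand, 3 exons) had the largest fall of the 10 in resolution with all 4 controls, and Ier3 had it against homeostasis 3 and 4 alone (log2 -1.39, beside -1.11 for Myc). It was 55.9, 81.1, 58.5 and 62.7 CPM in homeostasis, 49.7, 46.8, 44.5 and 47.2 in inflammation and 22.6, 32.4, 30.4 and 25.7 in resolution. The 3 groups did not overlap at any point. Against homeostasis Myc was 1.37-fold lower in inflammation (log2 -0.46 ± 0.15, adjusted p = 0.01956) and 2.32-fold lower in resolution (log2 -1.22 ± 0.15, adjusted p = 1.658e-06). Resolution was 1.69-fold below inflammation (log2 -0.76 ± 0.15, adjusted p = 0.001543). The smaller, first step was lost without homeostasis 2 (log2 -0.31, adjusted p = 0.0969), without inflammation 2 or 3 (adjusted p = 0.059 and 0.0606) and against homeostasis 3 and 4 alone (log2 -0.34, adjusted p = 0.0954).

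**Figure D2:**
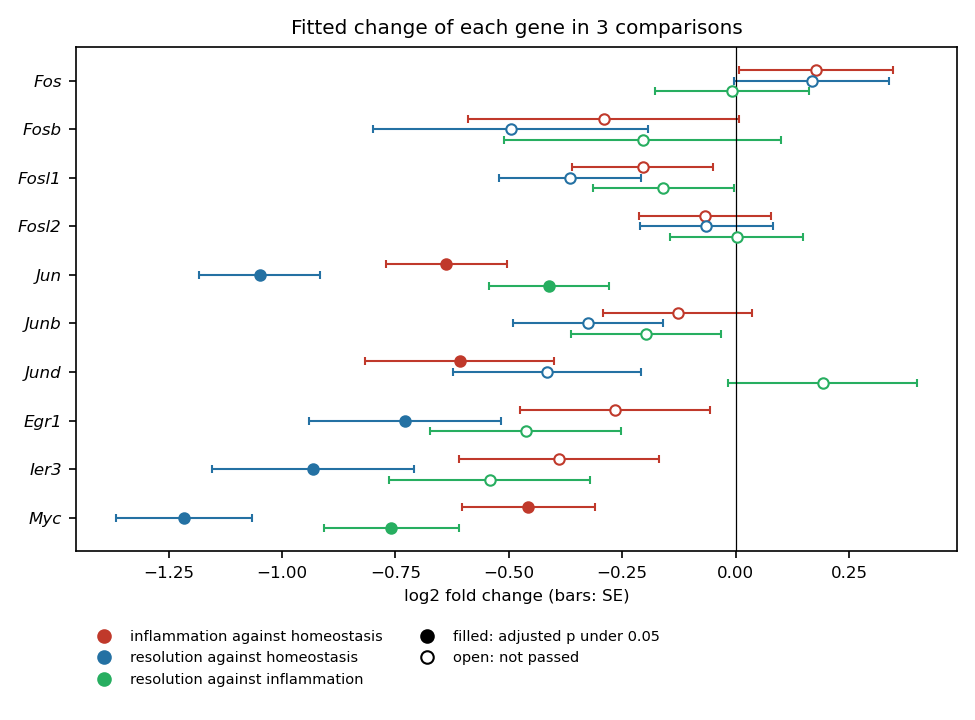
Log2 difference of each gene in the 3 comparisons, with bars of 1 standard error from the edgeR fit of all 12 libraries and points filled where the adjusted p was under 0.05. Jun and Myc are filled and left of 0 in all 3 comparisons, while Fos and Fosl2 are open and within 0.18 of 0 in each.

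Counted over the members, none was higher and 3 were lower in inflammation than in homeostasis (Jun, Jund and Myc). Of all genes tested 37.2% passed there, 19% of all genes in the higher and 18.3% in the lower direction. In resolution against homeostasis none was higher and 4 were lower (Jun, Egr1, Ier3 and Myc), against 53.3% of all genes passing, 27.5% higher and 25.8% lower. In resolution against inflammation none was higher and 2 were lower (Jun and Myc), against 16.2% of all genes, 8.52% higher and 7.64% lower. In either direction the members passed less often than all genes in the comparisons with homeostasis and slightly more often in the third, in the lower direction alone they passed more often in each, and 10 genes are too few to set such shares apart from the background. At an unadjusted p under 0.05, 3, 5 and 4 members differed in these 3 comparisons, all of them lower. The median log2 difference of the 10 was -0.28, -0.46 and -0.20, beside -0.01, -0.01 and 0.02 over all genes tested. With GC and length taken into account, Fos, Fosb, Fosl1, Junb and Jund were above 0 in the third comparison. Their log2 differences there were 0.11, 0.037, 0.091, 0.023 and 0.41. Jun, Egr1, Ier3 and Myc stayed below 0 there, and the median was not taken under this setting. The library ranges of 2, 2 and 3 members lay wholly lower, where 17.3%, 21.6% and 9.91% of all genes did so. Both comparisons against homeostasis share their controls, and all 3 share libraries.

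Levels of different genes were compared per kilobase of the longest protein-coding transcript (CPM per kb). In homeostasis the order was Ier3 (375), Junb (93.5), Fosl1 (53.7), Jund (47.3), Jun (27.7), Myc (27.6), Egr1 (17.0), Fosl2 (12.7), Fos (4.23) and Fosb (0.578). The ranges of Fosl1 and Jund, Jund and Jun, and Jun and Myc overlapped, and the other neighbours did not. In inflammation the first 4 kept their places at 286, 85.6, 46.6 and 31.0 CPM per kb, and Myc (20.1) and Jun (17.8) overlapped, as did Egr1 (14.2) and Fosl2 (12.1). In resolution Jun (13.4), Fosl2 (12.1), Myc (11.9) and Egr1 (10.3) formed a run in which each overlapped the next. Transcript length and GC content were at hand for 14134 of the tested genes. Among these, Ier3 lay at the 99.0th, 98.7th and 98.0th percentile in the 3 groups by this scale, Myc at the 80.7th, 76.7th and 65.9th and Fos at the 44.5th, 46.5th and 45.8th. All 10 transcripts had a GC content above the median of these 14134 genes (51.9% to 67.1%, beside 50.1%), and 3 of them (Jun, Junb and Jund) have a single exon.

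On the same scale the makeup of the families was described without a test. FRA-1 transcripts made up most of the Fos family in each group, at 75.0% ± 4.22, 72.9% ± 1.89 and 70.5% ± 2.43 (SD, n = 4) in homeostasis, inflammation and resolution. The share of Fos was 5.97% ± 0.604, 7.50% ± 1.53 and 8.06% ± 0.496, and that of Fosl2 18.3% ± 3.91, 18.8% ± 3.16 and 20.8% ± 2.34. In the Jun family the share of Jun went from 17.1% ± 3.62 (13.6% to 21.99%) to 13.3% ± 0.985 (12.4% to 14.7%) and 10.9% ± 0.619 (10.49% to 11.8%), so resolution lay below both other groups. Junb took 55.4% ± 1.20 (54.5% to 57.2%) in homeostasis, 63.7% ± 0.799 (62.7% to 64.4%) in inflammation and 60.5% ± 0.881 (59.7% to 61.7%) in resolution, with no overlap between any of the groups. The groups were thus apart in its share and overlapped in its level. Summed levels of the Fos family were 71.2 ± 11.2, 64.0 ± 2.79 and 59.0 ± 9.03 CPM per kb, and those of the Jun family 169 ± 44.6, 134 ± 13.8 and 123 ± 19.0, with overlapping ranges.

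**Figure D3:**
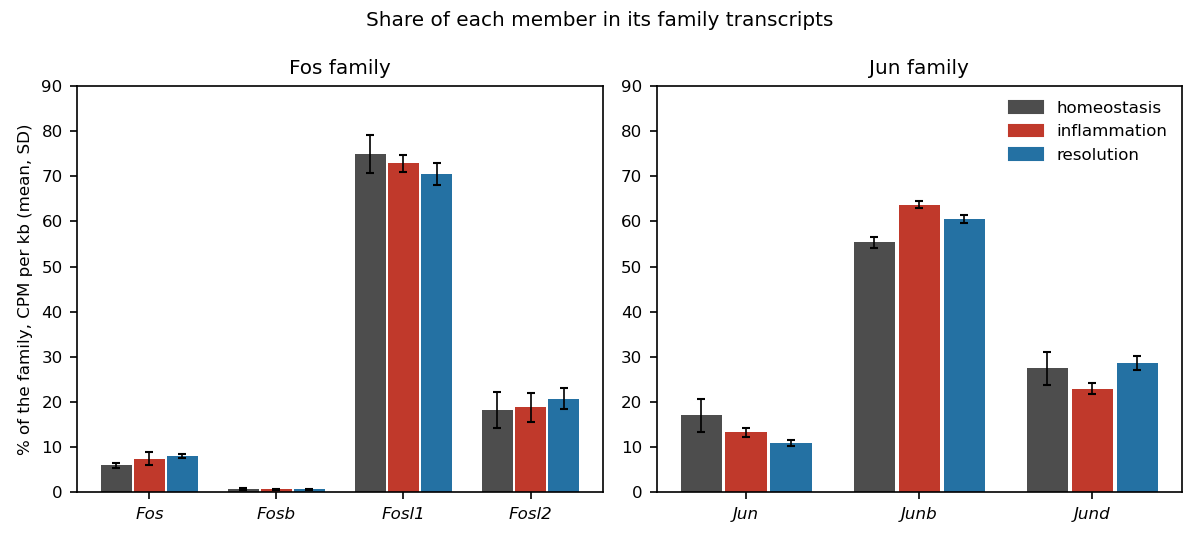
Share of each transcript in the summed length-scaled level of the Fos family and of the Jun family, in percent, as group means with SD bars (n = 4). Fosl1 takes 70.5% to 75.0% of the Fos family on average, and Junb takes 55.4% of the Jun family in homeostasis, 63.7% in inflammation and 60.5% in resolution.

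Among 22 tested partners of AP-1 (ATF, BATF, MAF and related leucine zipper proteins), 2 rose and 4 fell in inflammation against homeostasis, 5 rose and 3 fell in resolution against homeostasis, and 2 fell between inflammation and resolution. The last of these became 3 higher and 0 lower with GC and length taken into account, and the 2 that rose in inflammation became 4 against homeostasis 1 and 2 alone and 0 against 3 and 4 alone. No list was tested as a set. Beside the list counts here and below, 19% of all genes tested rose and 18.3% fell in inflammation against homeostasis. In resolution the shares were 27.5% and 25.8% against homeostasis and 8.52% and 7.64% against inflammation. The median log2 difference over all genes was -0.01, -0.01 and 0.02 in these comparisons. Atf4, a factor of the amino acid response, fell from 200.2 ± 6.52 to 136 ± 7.87 and 128 ± 12.1 CPM (adjusted p = 0.0006978 and 8.862e-05 against homeostasis). Atf2, a JUN partner activated by p38 and JNK, rose from 12.4 ± 1.53 to 18.4 ± 2.38 and 23.1 ± 5.30 CPM (adjusted p = 0.01677 and 0.0003119), but with GC and length taken into account its log2 differences were 0.040 and 0.042 (adjusted p = 0.839 and 0.817). Atf3, a stress-induced partner, fell from 5.21 ± 1.51 to 3.10 ± 0.548 CPM in inflammation (adjusted p = 0.01829), a call lost against homeostasis 1 and 2 alone (adjusted p = 0.193).

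The 51 other immediate early genes tested went in both directions, with 5 higher and 8 lower in inflammation, 11 higher and 15 lower in resolution, and 4 each way between the latter groups (medians of log2 -0.05, -0.04 and -0.11). The balance depended on the setting: in inflammation 9 rose and 4 fell against homeostasis 1 and 2 alone, 13 fell against 3 and 4 alone, and 10 rose with GC and length taken into account (17 in resolution). Between the doxycycline groups 9 rose and 12 fell in the fit of those groups blocked by replicate. Ptgs2, which encodes the inducible cyclooxygenase, stood at 408 ± 120, 1228 ± 162 and 1044 ± 243 CPM in the 3 groups (log2 1.59 and 1.36, adjusted p = 3.243e-06 and 8.786e-06, or log2 1.02 and 0.46 with GC and length taken into account). Nr4a2, an orphan nuclear receptor, rose from 44.8 ± 6.83 to 127 ± 27.1 CPM in inflammation (adjusted p = 2.025e-06) and stood lower again in resolution at 81.6 ± 17.8 (log2 -0.63, adjusted p = 0.01744). Nfkbia, which encodes the NF-kB inhibitor, was 241 ± 67.2, 134 ± 6.56 and 132 ± 11.9 CPM in the 3 groups (resolution against homeostasis adjusted p = 0.0001468). Cyr61, a matricellular target of SRF and YAP, was 819 ± 97.8 and 844 ± 93.8 CPM in homeostasis and inflammation and 532 ± 119 in resolution (log2 -0.66 against inflammation, adjusted p = 0.004924).

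Upstream of the members, 33 receptors and kinases of the ERK, JNK and p38 pathways were tested. In inflammation 5 rose and 6 fell, and in resolution 6 rose and 10 fell, both against homeostasis. Between inflammation and resolution 6 rose and none fell (1 rose with the replicate block in the fit of all groups). Of all genes tested 37.2%, 53.3% and 16.2% passed in either direction in these comparisons. Mapk9, which encodes a JUN kinase, rose from 32.2 ± 3.44 through 43.9 ± 3.72 to 62.3 ± 12.6 CPM (resolution against homeostasis log2 0.95 ± 0.15, adjusted p = 3.123e-05). Map2k4, which activates the JUN kinases, rose from 22.3 ± 2.85 to 44.1 ± 9.35 CPM (log2 0.98, adjusted p = 6.48e-05). In inflammation, by contrast, Map3k5 and Map3k1, which act further up the JNK pathway, fell to 5.78 ± 2.78 and 2.67 ± 0.637 CPM from 14.2 ± 3.56 and 5.56 ± 1.14 (adjusted p = 0.0006454 and 0.002012). Of 10 genes of SRF and its cofactors none passed in inflammation and 1 rose and 3 fell in resolution. Mkl1, an actin-regulated SRF coactivator, was 120.3 ± 19.8, 115 ± 6.06 and 78.1 ± 20.4 CPM (resolution against homeostasis log2 -0.62, adjusted p = 0.002815). Of 22 feedback inhibitors, 6 rose and 4 fell in inflammation, 9 rose and 7 fell in resolution against homeostasis, and 3 rose between the doxycycline groups. Rasa1, a RAS GTPase activator, went from 36.2 ± 5.42 to 67.4 ± 9.82 and 104 ± 21.0 CPM, and Dusp6, an ERK phosphatase induced by ERK itself, from 27.2 ± 2.36 to 40.5 ± 3.71 in inflammation (adjusted p = 0.000236 and 0.001656). With GC and length taken into account the Rasa1 difference was 0.47 (adjusted p = 0.00546).

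Of 38 AP-1 target genes, 6 rose and 3 fell in inflammation against homeostasis, 8 rose and 13 fell in resolution against homeostasis, and 2 rose and 8 fell between inflammation and resolution (medians of log2 0.05, -0.09 and -0.07). Spp1, which encodes osteopontin, stood at 1254 ± 103, 3096 ± 334 and 3135 ± 513 CPM in the 3 groups (adjusted p = 4.466e-07 and 1.796e-07 against homeostasis). The urokinase gene Plau was 347 ± 56.1 and 358 ± 16.7 CPM in homeostasis and inflammation and 177 ± 20.0 in resolution (log2 -1.01 ± 0.13 against inflammation, adjusted p = 2.272e-05). Its receptor gene Plaur (144 ± 14.4 to 81.5 ± 13.2 CPM, adjusted p = 0.001177) and the cytokine gene Il11 (136 ± 14.7 to 58.7 ± 3.77 CPM, adjusted p = 9.292e-05) fell in the same comparison. With homeostasis 1 and 2 as the only controls, 13 targets were higher in inflammation instead of 6, and with GC and length taken into account 11 were higher and 9 lower. Macrophage markers moved beside these lists: 10 of 11 were higher in inflammation than in homeostasis and all 11 were lower in resolution than in inflammation, with Itgam at 5.64 ± 2.25, 54.4 ± 8.91 and 1.45 ± 0.295 CPM. Their part in the results was not tested.

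Most of the listed MYC targets fell against homeostasis, and fewer of them between inflammation and resolution. Of 38 MYC targets in ribosome and nucleotide synthesis, 29 fell in inflammation and 29 in resolution against homeostasis and none rose, and between inflammation and resolution 1 rose and 12 fell (medians of log2 -0.61, -0.91 and -0.26). Shmt2, a mitochondrial enzyme of one-carbon metabolism, was 284 ± 35.1, 110.4 ± 14.5 and 74.7 ± 12.7 CPM (log2 -1.36 and -1.93 against homeostasis, adjusted p = 5.612e-07 and 2.71e-09). Srm, which encodes spermidine synthase, was 202 ± 23.1, 108 ± 19.2 and 69.6 ± 11.2 CPM, and its step from inflammation to resolution passed as well (log2 -0.64, adjusted p = 0.006643). Odc1, the first enzyme of polyamine synthesis, fell in inflammation (138 ± 12.9 to 74.2 ± 4.91 CPM, adjusted p = 9.559e-06) and stood at 99.9 ± 7.48 CPM in resolution. All 20 proliferation genes fell in both comparisons against homeostasis and 16 fell from inflammation to resolution, Plk1 from 135 ± 5.40 to 31.6 ± 3.58 and 9.67 ± 1.64 CPM. Of 16 partners and antagonists of MYC, 1 rose and 4 fell in inflammation and 2 rose and 6 fell in resolution. Mxd3, a MAX partner made in dividing cells, went from 10.4 ± 1.29 to 2.46 ± 0.572 and 0.729 ± 0.127 CPM (adjusted p = 2.03e-07 and 1.213e-10), and Mga, a MAX-binding repressor, from 17.0 ± 6.07 to 51.9 ± 17.6 CPM in resolution (adjusted p = 7.543e-05; log2 1.62, or 0.60 with GC and length taken into account). Among 15 survival genes, 4 rose and 4 fell against homeostasis in inflammation and again 4 each way in resolution, with Xiap, an inhibitor of caspases, higher in both (24.3 ± 7.32, 58.7 ± 9.06 and 81.5 ± 20.1 CPM, log2 1.27 and 1.75, or 0.66 and 0.80 with GC and length taken into account) and Tnfaip3, the A20 inhibitor of NF-kB, lower in inflammation (54.8 ± 8.54 to 31.2 ± 8.45 CPM, adjusted p = 0.001172).

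**Figure D4:**
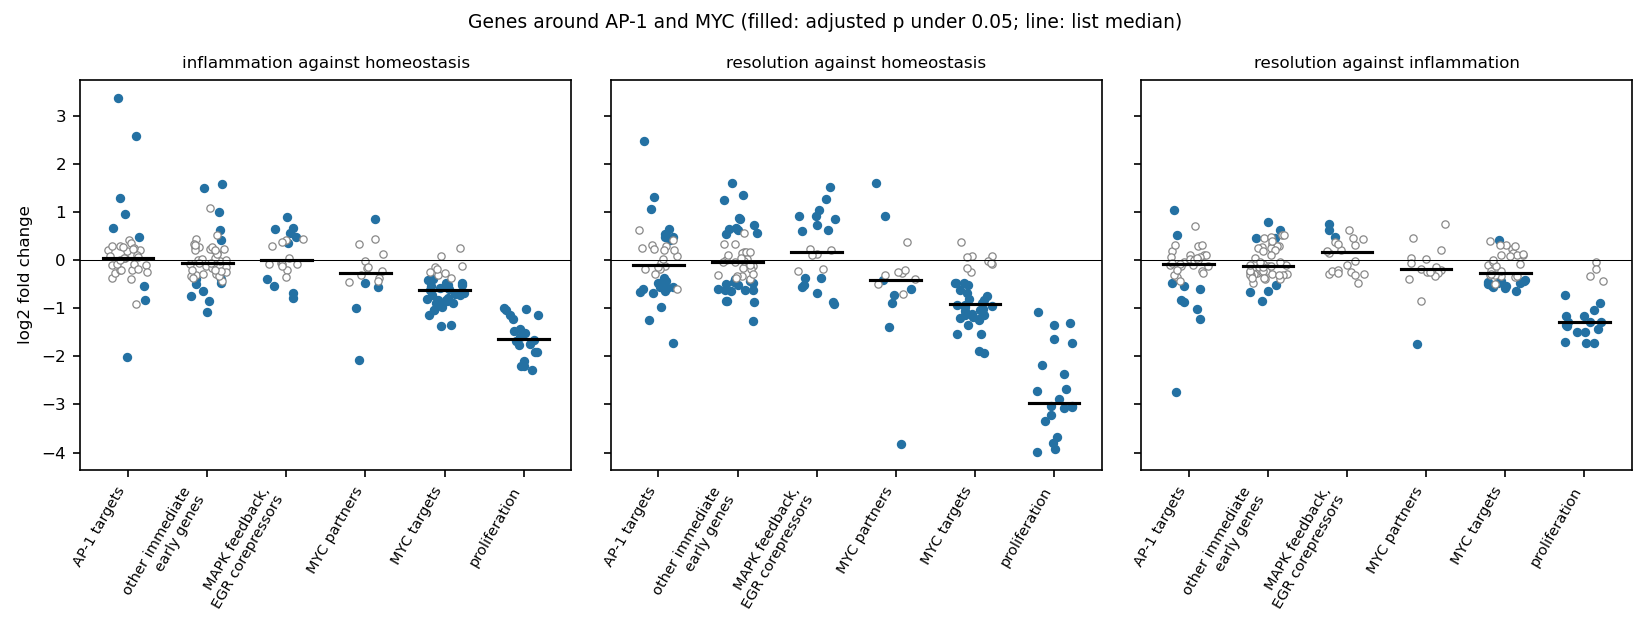
Log2 fold change of every tested gene of 6 lists in the 3 comparisons, with 1 point per gene, filled where the adjusted p was under 0.05, and a line at each list's median. Proliferation genes lie wholly below 0 and MYC targets mostly so, with medians of -0.61, -0.91 and -0.26, and the other lists spread to both sides.

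The genes whose levels followed a member most closely over the 12 libraries were found by Pearson correlation of log2 CPM among 10463 genes of at least 5 CPM. These libraries fall into 3 groups and share depth and composition, so the values are descriptive. For Myc they were Sbsn (r = 0.98, with 192 ± 45.2, 149 ± 11.6 and 77.1 ± 9.55 CPM), Gm13669 (r = 0.97) and Usp36 (r = 0.97), a nucleolar deubiquitinase at 61.7 ± 6.45, 37.9 ± 1.83 and 23.9 ± 3.84 CPM. For Egr1 they were Rnaseh1 (r = 0.95), Ciz1 (r = 0.93) and Sugp1 (r = 0.92), for Fosl1 Dlgap4 (r = 0.95), Trim8 (r = 0.93) and Zfp865 (r = 0.93), and for Fos, whose own range was narrow, Blcap (r = 0.91), Cdk10 (r = 0.88) and 1600002K03Rik (r = 0.84).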

How the data were processed

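RNA of 12 libraries was sequenced from poly(A)-enriched material extracted with Trizol, as paired reads on a NovaSeq instrument, per the labels' protocols. The authors deposited 1 table of expected counts per gene symbol, not normalized, and the submitters' processing notes name the build GRCm38.p3. Aligner, counter and strand setting were not given in any source used here. Of 36930 entries, 13 without a value were left out and 42 repeats over 34 symbols were summed. Of the values 1.43% were not whole, and all were rounded to whole counts, so reads shared between near-identical genes may be split.

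Genes were filtered (filterByExpr) and fitted with edgeR 4.0.16 (TMM, robust quasi-likelihood, group only, R 4.3.3), at a threshold of 0.05 on the Benjamini-Hochberg adjusted p. The biological coefficient of variation was 18.6%. The fit was tested on simulated data. Positions, lengths and GC content came from GENCODE M21 (GRCm38) and promoters from RefSeq. No 2 libraries of a group agreed within sampling noise (reduced chi-square 9.5 to 105). Members and lists were chosen with earlier results of these data known. Of 333 list symbols 331 matched as written and 1 under another symbol. Named genes were the members, Tnf, Xist and Ddx3y as checks of the labels, up to 4 genes per list and comparison by smallest adjusted p among those that passed, and the 3 most correlated genes of Fos, Fosl1, Egr1 and Myc. Other genes named as markers come from the marker lists.

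Deviations from the group mean correlated at 0.126 to 0.214 in the 4 same-numbered pairs of inflammation and resolution libraries. The 12 differently numbered pairs of these groups ran from -0.251 to 0.2, so the ranges overlapped. Same-numbered pairs gave -0.213 to 0.0802 for homeostasis and inflammation and -0.228 to -0.00275 for homeostasis and resolution. Differently numbered pairs of homeostasis and resolution reached 0.355. A fit of inflammation and resolution with the replicate block was added after these values were seen. It called 4808 genes, with 4 members lower, in place of 2431 genes and 2 members in the unblocked fit of all 12 libraries. Fitting only these groups with no block called 3067 genes, with 3 members lower. The block in the fit of all groups called 1898 genes, with 1 member lower. The 4 members lower in the blocked fit of these groups alone were Jun (log2 -0.43, adjusted p = 0.0067), Egr1 (-0.52, adjusted p = 0.0323), Ier3 (-0.56, adjusted p = 0.000228) and Myc (-0.78, adjusted p = 3.55e-05). Alternatives used DESeq2 1.42.0, limma 3.58.1 (voom), other scalings, no filter, only the groups compared, either pair of controls, GC and length offsets (mgcv 1.9.3, 93.9% of tested genes) and each library left out.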

Additional observations from a re-analysis of the deposited data

How the results depend on the processing

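Of 650 member values under alternatives, 558 kept their direction and side of the threshold, 28 lost the call, 28 gained one and 36 changed sign. Jun in both comparisons against homeostasis and Myc in both comparisons with resolution kept their call under every alternative run (Jun log2 -0.70 to -0.52 and -1.15 to -0.69, Myc -1.31 to -0.94 against homeostasis and -0.84 to -0.57 against inflammation). The cause of the changes below was not tested. With the replicate block in the fit of all groups, 1 member was lower between inflammation and resolution, as Jun no longer passed, and Jund in inflammation gave -0.59 (adjusted p = 0.0601); with only those groups and the block, 4 members were lower and 4808 genes passed, 2585 higher and 2223 lower. No other member call changed with the block. With GC and length offsets, 1 member was higher in resolution than in homeostasis (Fos, log2 0.39, adjusted p = 0.0267), 1 was higher (Jund, 0.41, adjusted p = 0.0111) and 1 lower in resolution than in inflammation. Against homeostasis 3 and 4 alone, 7 members were lower in resolution. Without the low-count filter, Fosl1 and Jund passed in resolution against homeostasis, Ier3 in inflammation, and Egr1 and Ier3 but not Jun between inflammation and resolution (adjusted p = 0.00526 to 0.0428 for those passing, 0.065 for Jun). Leaving out 1 library at a time gave 1 to 3 members lower in inflammation (1 without inflammation 2 or 3), 4 to 7 in resolution against homeostasis (7 without homeostasis 2 or resolution 2) and 1 to 3 against inflammation. It gave 1242 to 4191 genes between inflammation and resolution (4191 without resolution 2, 1242 without resolution 4, 1299 without resolution 3, 1351 without inflammation 2, 1443 without inflammation 1, 1584 without resolution 1), 482 to 2360 of them higher and 760 to 1831 lower. Without length scaling, 4 of 10 ranks of the members changed. All 30 group levels on raw totals stayed within 1 SD. Counts of the related lists moved too: kinases higher in inflammation went from 5 to 0 against homeostasis 1 and 2, and feedback inhibitors lower in resolution from 7 to 2.

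Among the members, signs changed only for values that had not passed in the main fit. Cdh19 and Spred1 had passed in resolution against homeostasis (log2 0.72 and 0.86, adjusted p = 0.02824 and 4.094e-05). With the GC and length offsets these calls were lost (adjusted p = 0.661 and 0.877). In inflammation against homeostasis, homeostasis 1 and 2 alone gave Fosb 0.37, Fosl1 0.009137, Junb 0.24 and Ier3 0.31, and Fosl2 was 0.00310 with upper-quartile factors, 0.049 with GC and length offsets and 0.015 against homeostasis 3 and 4. In resolution against homeostasis, homeostasis 1 and 2 alone gave Fosb 0.15, Junb 0.032 and Jund 0.064, homeostasis 3 and 4 alone gave Fosl2 0.00328, and the offsets gave Fosl2 0.12, Cdh19 -0.13 and Spred1 -0.023. In resolution against inflammation, the offsets gave Fos 0.11, Fosb 0.037, Fosl1 0.091 and Junb 0.023, and Fosl2 was -0.000333 with DESeq2 size factors, -0.000303 with DESeq2, -0.047 with upper-quartile factors, -0.00453 without a filter and -0.00785 in the fit of these groups alone. Leaving out 1 library gave Fosl2 -0.14 to 0.071 and Junb -0.21 to 0.043 in inflammation, Fosl2 -0.12 to 0.0051 in resolution against homeostasis, and Fos -0.11 to 0.075 and Fosl2 -0.13 to 0.080 against inflammation. Depth limits Fosb most, at 29 to 63 counts a library.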
